A study of Mus musculus with 5 samples.

Results

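Heat shock protein and DnaJ chaperones were followed on 5 Affymetrix GeneChip mouse arrays of cultured optic nerve. The members are the genes whose symbol in the array annotation names an Hsp70 or Hsp110, Hsp90 alpha, small heat shock or chaperonin protein, a DnaJ protein of type A, B or C, the heat shock factors Hsf1 and Hsf2, or a BAG protein, leaving out the endoplasmic reticulum (ER) chaperones Hspa5 and Hsp90b1. The rule found 75 genes with 175 probe sets, of 18194 genes that a probe set names alone and 45101 probe sets in all. A further 3 probe sets name Dnajc19 together with a pseudogene and were left out, and Hsf1 and Hsp90ab1 are not analysed here. Of the members, 68 genes with 147 probe sets passed the filter on low signals, and Dnajb3, Dnajb7, Dnajc5b, Dnajc5g, Hsf2, Hspa1l and Hspb9 did not.

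Optic nerves of C57BL/6 mice aged P35 to P45 were kept for 3 days in organotypic culture with LY294002, an inhibitor of PI3K, the kinase upstream of AKT and mTOR. There were 3 L-LY29 arrays, which the labels place at 0.5 µM, and 2 H-LY29 arrays at 50 µM. The paper states a higher L-LY29 dose for adult nerves than the labels do, and the labels also spell the compound LY295002, so the dose of the L-LY29 arrays is not settled. Control arrays were not analysed here, and differences are given on the log2 scale as L-LY29 minus H-LY29. They were fitted by limma, with p-values adjusted by Benjamini-Hochberg over all genes or all probe sets tested. No source used here tells which mice and nerves went onto which array, so a p-value reflects the spread among these arrays alone, and that spread may be technical. A nerve holds several cell types, and fewer cells of a type cannot be told apart from less RNA per cell.

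Chaperones bind unfolded stretches of protein and keep them from aggregating. Hsp70 proteins do so in cycles of ATP hydrolysis, which J-domain (DnaJ) proteins start and nucleotide exchange factors of the BAG and Hsp110 families end. Hsp90 and the chaperonins act on later folding intermediates, while small heat shock proteins hold clients without ATP. In stressed cells heat shock factor 1 binds inverted GAA repeats, the heat shock elements, in the promoters of many of these genes, whereas the chaperones of the ER answer to a separate response to unfolded protein there.

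The doses differed over much of the array, which sets the background for the chaperones. Of 12935 genes tested, 27.1% were higher and 46.6% lower in L-LY29 at an adjusted p under 0.05, 73.8% in either direction, and on 83.1% of genes the 3 L-LY29 arrays were all above or all below both H-LY29 arrays. Of the 68 chaperone genes tested, 17 (25.0%) were higher, 34 (50.0%) lower and 17 did not pass, and the arrays of the doses did not overlap on 58 (85.3%). All of these shares lay near those of all genes. The median difference of the chaperone genes was −0.41, against −0.26 for all genes (without H-LY29 array 1, −0.26 against −0.16), and the members ranged from −2.93 (Dnaja3) to 4.27 (Dnajc17). Equal array medians brought the median of all genes to −0.05 and that of the chaperones to −0.20. With that scaling 20 chaperones were higher and 30 lower, and the share of all called genes that were higher was 47.2%, against 36.8% with the values as deposited and 52.1% after quantile normalization.

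Technical and tissue readings also moved with dose. Bacterial poly-A RNAs, which are added before labelling, gave mean signals of 10.22 ± 0.24 in L-LY29 (SD, n = 3) and of 3.17 ± 0.0047 in H-LY29 (SD, n = 2). The 3′ probe set of actin exceeded the 5′ one on average by 0.43 (L-LY29) and by 0.92 (H-LY29). For Gapdh the 3′ minus 5′ mean was −0.13 (L-LY29) and 0.69 (H-LY29). Among markers, the log2 summed signal of 6 fibroblast genes was 11.36 to 11.93 in L-LY29, against 13.86 to 14.15 in H-LY29, with 6 of 6 lower. The 7 astrocyte markers had sums of 12.57 to 13.15 in L-LY29, against 14.11 to 14.12 in H-LY29 (0 higher, 4 lower). For 8 markers of ocular surface epithelium the sums were 11.93 to 14.51 in L-LY29, against 7.35 to 7.63 in H-LY29 (7 of 8 higher). Oligodendrocyte markers had sums of 16.10 to 16.14 in L-LY29, against 15.83 to 15.88 in H-LY29 (6 higher, 3 lower of 9). Microglial markers were higher in 5 and lower in 2 of 7, endothelial ones higher in 3 and lower in 1 of 5, and those of oligodendrocyte precursors higher in 1 and lower in 3 of 7. Of the retina and neuron markers, 4 were tested (2 higher, 1 lower), and Pde6b, Rcvrn and Pou4f1 did not pass the filter. The part of these readings in the chaperone differences was not tested.

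**Figure D1:**
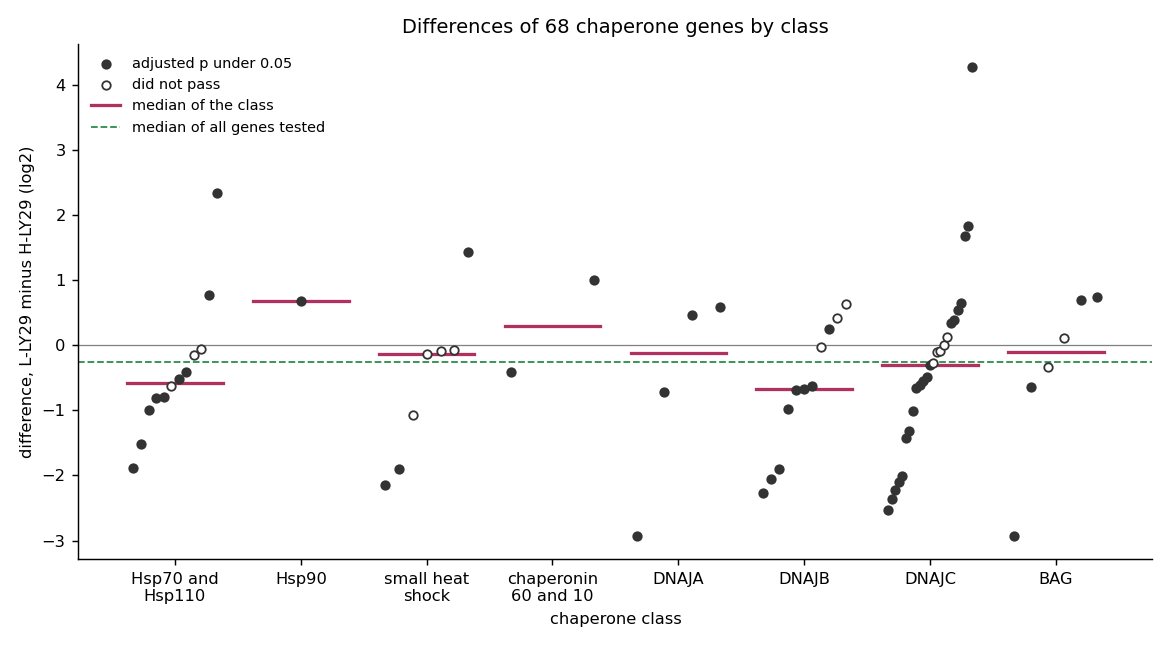
Difference in log2 signal (L-LY29 minus H-LY29, vertical axis) of the brightest probe set of each of the 68 tested chaperone genes, by class along the horizontal axis, with filled points for genes that passed the test, open points for those that did not, a red bar at each class median and a green dashed line at the median of all genes, −0.26. Most classes hold genes on both sides of 0, and Dnajc17 lies highest at 4.27.

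Promoter sequences are shown for 7 of these genes, the stress-inducible Hsp70 pair and those whose window held the longest heat shock or ER stress motif. RefSeq windows of 250 bases before to 50 after the start (build GRCm38.p6) matched 61 members with 79 promoters. A run of 3 alternating units (GAANNTTCNNGAA or TTCNNGAANNTTC, which also holds the shorter motif) occurred in 6 of these 79 promoters (7.59%), of the 4 genes Dnajb6, Hspd1, Hspe1 and Hsph1, and in 0.603% of 32851 promoters of all genes. A pair of units (GAANNTTC or TTCNNGAA, each its own reverse complement) occurred in 17 of the 61 members (27.9%), in 10 of the 12 matched genes of a list of known heat-inducible chaperones (83.3%), and in 17.0% of all 27025 genes. Counted by promoters, it was in 24.1% of those of members and in 15.1% of all. The ER stress element (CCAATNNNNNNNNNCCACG or its reverse complement) was found in Dnajc3 alone among the members and in 0.119% of all promoters. Such matches describe letters only, and capitals mark the matched motif in each line, written 5′ to 3′ on the gene's strand.
Hspa1a, chr17:34972223-34972290, minus strand: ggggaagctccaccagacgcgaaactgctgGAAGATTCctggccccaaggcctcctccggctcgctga
Hspa1b, chr17:34959305-34959372, minus strand: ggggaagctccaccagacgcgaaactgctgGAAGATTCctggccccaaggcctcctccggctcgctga
Hspd1, chr1:55088053-55088082, minus strand: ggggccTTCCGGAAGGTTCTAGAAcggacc
Hspe1, chr1:55088053-55088082, plus strand: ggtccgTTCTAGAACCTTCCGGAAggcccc
Hsph1, chr5:149636280-149636308, minus strand: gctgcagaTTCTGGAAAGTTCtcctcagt
Dnajb6, chr5:29735822-29735894, plus strand: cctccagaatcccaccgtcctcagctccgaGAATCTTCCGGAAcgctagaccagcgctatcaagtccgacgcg
Dnajc3, chr14:118937797-118937875, plus strand: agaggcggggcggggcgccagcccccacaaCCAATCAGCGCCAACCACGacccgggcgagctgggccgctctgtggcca
The full windows of Hspa1a and Hspa1b were equal at 296 of 300 positions. Hspd1 and Hspe1 lie head to head, so that their lines are the same stretch read from either strand. Overlapping windows of Hsph1, and likewise of Dnajb6, held the same run, so the 6 promoters are not separate finds. The printed Hsph1 stretch lies 7 to 35 bases past a start of that gene, and its run lies after each listed start.

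Of the 12 tested Hsp70 and Hsp110 genes, the 2 that were higher in L-LY29 were the stress-inducible pair. Hspa1a, which encodes an Hsp70 that is nearly silent in unstressed cells, had signals of 12.60, 12.49 and 12.74 in L-LY29, against 10.22 and 10.33 in H-LY29. All 3 L-LY29 arrays lay above both H-LY29 arrays, with a difference of 2.33 (SE 0.0868, adjusted p = 5.19e-05) or 5.04-fold. Its neighbour Hspa1b, which encodes a nearly identical protein, had 12.90, 12.85 and 13.00 in L-LY29 and 12.16 and 12.13 in H-LY29 on its brightest probe set (0.77, SE 0.0549, adjusted p = 0.000207). The other Hspa1b probe sets differed by 2.99 and 3.18 (7.97- and 9.06-fold; adjusted p = 9.72e-05 and 8.01e-05), so all 3 were higher. Probes of these genes may bind either transcript, and the signals of the pair are uncertain as to gene. Both genes are also on the study's list of genes common to both doses, which was drawn from arrays of this experiment and is not independent evidence.

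Most other Hsp70 and Hsp110 genes were lower in L-LY29. In the class 2 genes (16.7%) were higher, 7 (58.3%) lower and 3 did not pass, against 27.1% higher and 46.6% lower of all genes. The class median was −0.57 (−0.31 relative to all genes, −0.36 with equal array medians, and −0.59 relative to all genes without H-LY29 array 1). Hsph1, an Hsp110 exchange factor that is induced by heat, had 11.00, 11.16 and 11.31 in L-LY29 and 13.07 and 13.02 in H-LY29, a difference of −1.89 (SE 0.0967, adjusted p = 8.92e-05). Its second probe set went the other way, at 10.29, 10.29 and 10.64 in L-LY29 and 10.01 and 9.74 in H-LY29 (0.53, adjusted p = 0.0232). Hspa4, a second Hsp110 protein, was lower on 4 of 4 probe sets, with 10.52, 10.67 and 10.72 in L-LY29 and 11.49 and 11.39 in H-LY29 on the brightest (−0.80, SE 0.0767, adjusted p = 0.000516). Its testis-enriched relative Hspa4l did not pass on its brightest probe set (−0.15, adjusted p = 0.143), and its other 4 differed by 0.74, 0.22, −1.21 and 0.42. Without H-LY29 array 1 or array 2 a different Hspa4l probe set was brightest, and the difference was 0.65 or 0.82.

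The constitutive cytosolic Hsp70, Hspa8 (Hsc70), was among the brightest members. Its signals were 12.69, 12.76 and 12.76 in L-LY29 and 13.26 and 13.05 in H-LY29, which do not overlap (−0.42, SE 0.0723, adjusted p = 0.00442). On its other probe sets the difference was −0.72, −1.37 and 0.69. Hspa2, a testis Hsp70, had 10.17 on each L-LY29 array and 10.40 and 10.98 in H-LY29 (−0.51, adjusted p = 0.0448), a call that was lost on leaving out any 1 L-LY29 array (adjusted p from 0.107 to 0.109). Values equal on at least 2 L-LY29 arrays occurred at the brightest probe set of 19 of the 68 members, and on all 3 arrays at Hspa2 and Dnajc27 (0.12, not passed). Such ties were common on the arrays, with 4330 of all 12935 genes equal on at least 2 L-LY29 arrays and 873 on all 3. An equal value could recur in H-LY29, as at Dnajc1 (8.23 on L-LY29 arrays 2 and 3 and on H-LY29 array 1). Ties narrow the spread on which the p-values rest, and how far they moved the calls was not tested. The distant relative Hspa12a was lower on its brightest probe set (−1.52, adjusted p = 0.000413), with −0.10 and 0.98 on the others. Hspa14, a ribosome-associated Hsp70, did not pass on its brightest (−0.06, adjusted p = 0.559) and was lower on both others (−1.46 and −0.75).

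Hsp90aa1, the stress-inducible cytosolic Hsp90, was higher in L-LY29. Its signals were 12.96, 12.96 and 12.98 in L-LY29 and 12.04 and 12.52 in H-LY29 (0.69, SE 0.141, adjusted p = 0.00837), with no overlap. Differences on its other probe sets were 1.22, 0.81 and 0.23, and the last did not pass. The mitochondrial chaperonin pair, which assembles into 1 folding chamber, went in opposite directions on the brightest probe sets. Hspd1 (Hsp60) had 11.67, 11.78 and 11.68 in L-LY29 and 10.78 and 10.61 in H-LY29 (1.01, SE 0.0713, adjusted p = 0.0002, 2.01-fold). Its lid Hspe1 (Hsp10) had 12.17, 12.29 and 12.36 in L-LY29, against 12.79 and 12.56 in H-LY29 (−0.40, SE 0.0933, adjusted p = 0.0125). On the second Hspe1 probe set L-LY29 was above H-LY29, by 0.27 (adjusted p = 0.00446), so the direction of Hspe1 depends on the probe set. The 2 genes share the promoter stretch printed above.

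**Figure D2:**
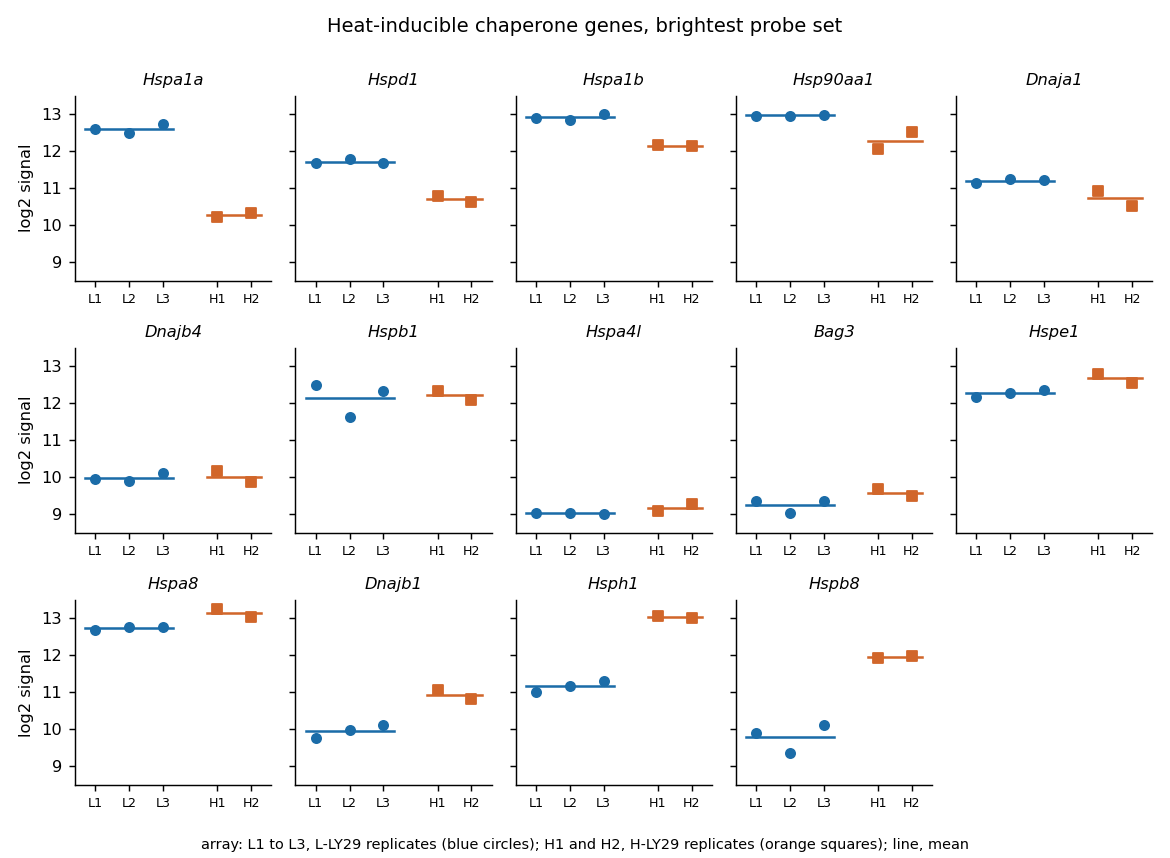
Log2 signal of the brightest probe set (vertical axis) on each of the 3 L-LY29 and 2 H-LY29 arrays for the 14 tested genes of the heat-inducible list. Hspa1a (2.33) stands higher and Hsph1 (−1.89) lower in L-LY29, while Hspb1 and Dnajb4 overlap between the doses.

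Over the heat-inducible list as a whole, no single direction held. Of 14 genes tested, 5 were higher (35.7%), 5 lower (35.7%) and 4 did not pass, against 27.1% higher and 46.6% lower of all genes. Hspa8, described above as constitutive, is on the list and is 1 of the 5 lower genes. The median was −0.11, but 0.10 after quantile normalization and 0.11 with equal array medians. It was 0.09 or 0.05 without H-LY29 array 1 or array 2. By the second brightest probe set, where a gene has one, 10 were higher and 2 lower with a median of 0.65. Over the list's 35 tested probe sets, 18 were higher (51.4%), 10 lower (28.6%) and 7 did not pass, against 29.0% higher and 43.7% lower of all probe sets. The list was written with earlier results of these arrays known, so the counts describe it only.

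The small heat shock proteins split by gene. Of 7 tested, 1 was higher (14.3%), 2 were lower (28.6%) and 4 did not pass, against 27.1% higher and 46.6% lower of all genes. The median was −0.14, which equal array medians turned to 0.07. It was −0.26 or −0.27 without H-LY29 array 1 or array 2. Hspb8, which works with Bag3 in autophagy of misfolded protein, had 9.91, 9.37 and 10.13 in L-LY29 and 11.92 and 11.97 in H-LY29 (−2.15, SE 0.233, adjusted p = 0.000794, a ratio of 0.226). Its other probe sets were lower as well (−0.88 and −0.41). Hspb2, mainly a muscle protein, had 5.63, 5.13 and 5.63 in L-LY29 and 7.68 and 7.06 in H-LY29 (−1.91, SE 0.259, adjusted p = 0.00178). Hspb11, which despite its name is a subunit of the intraflagellar transport complex, had 10.09, 10.20 and 10.09 in L-LY29 and 8.79 and 8.59 in H-LY29 (1.43, SE 0.0844, adjusted p = 0.000123).

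Hspb6 and Hspb1 had the widest spread among L-LY29 arrays of the 68 members (SD 0.987 and 0.452, n = 3). Hspb1 (Hsp25), the heat-inducible actin-associated protein, had 12.49, 11.64 and 12.32 in L-LY29 and 12.34 and 12.09 in H-LY29 (−0.06, SE 0.275, adjusted p = 0.841). The second Hspb1 probe set stood at 0.48 and did not pass either. Hspb6 (Hsp20) had 9.23, 7.52 and 9.22 in L-LY29 and 9.59 and 9.85 in H-LY29 (−1.06, SE 0.584, adjusted p = 0.159). In both genes L-LY29 array 2 was the low one, and without it Hspb6 differed by −0.50 and passed the test (adjusted p = 0.0225). L-LY29 array 2 also had the lowest sum of astrocyte markers among the L-LY29 arrays, 12.57 beside 13.08 and 13.15, and the lowest ocular surface sum, 11.93 beside 14.51 and 12.95. Its sums of oligodendrocyte precursor markers (12.08 beside 12.35 and 12.35) and of oligodendrocyte markers (16.10 beside 16.14 and 16.14) were the lowest as well. Those of the other marker groups were not. The part of these cell types in the Hspb1 and Hspb6 levels was not tested.

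**Figure D3:**
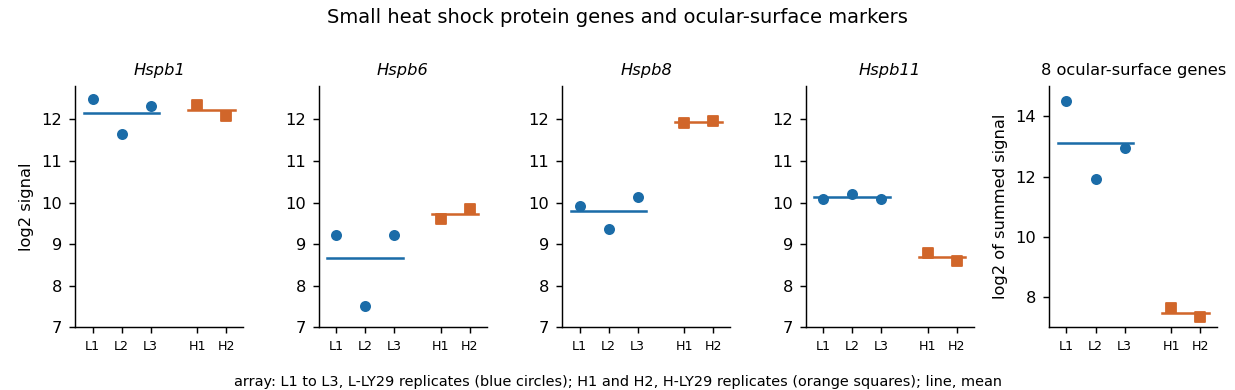
Log2 signal of Hspb1, Hspb6, Hspb8 and Hspb11 on each array, L-LY29 left and H-LY29 right, beside the log2 summed signal of 8 ocular surface genes. L-LY29 array 2 is the lowest L-LY29 array for Hspb1, Hspb6 and Hspb8 and for the ocular surface sum.

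DnaJ proteins of type A, which have the full domain order of bacterial DnaJ, were higher in 2 and lower in 2 of 4 genes (50.0% each). Of all genes, 27.1% were higher and 46.6% lower. Dnaja3 (Tid1), the mitochondrial member, had 8.82, 8.85 and 8.99 in L-LY29 and 11.81 and 11.82 in H-LY29 (−2.93, SE 0.0682, adjusted p = 4.04e-05, a ratio of 0.131). The doses did not overlap on that probe set, while the second one, at −0.27, did not pass. Dnaja1, a cytosolic partner of Hsp70, had 11.13, 11.23 and 11.22 in L-LY29 and 10.91 and 10.53 in H-LY29 (0.47, SE 0.124, adjusted p = 0.0197). Its other probe sets were higher as well (1.04 and 0.41), but the call was lost without L-LY29 array 2 (adjusted p = 0.0648) or array 3 (0.0642). Dnaja2, also cytosolic, was higher on its brightest probe set, with 11.53, 11.50 and 11.62 in L-LY29 and 11.05 and 10.87 in H-LY29 (0.59, SE 0.0744, adjusted p = 0.00137). Its remaining probe sets differed by −0.31, −0.58 and 2.80, and for the last of these the H-LY29 signals of 4.28 and 4.07 lay within the range that absent poly-A RNAs gave. Dnaja4 was lower (−0.72, adjusted p = 0.00162), with −0.53 and 1.07 on its other probe sets.

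Type B proteins were lower more often than higher, 7 (63.6%) against 1 (9.1%) of 11 genes with 3 not passing. Of all genes, 46.6% were lower and 27.1% higher. The median of type B genes was −0.66 (−0.40 relative to all genes). When a gene's probe sets were averaged it was 0.19 (0.44 relative to all genes). By the second brightest probe set it was 0.26 (0.43 relative to all genes). Without H-LY29 array 2, 3 type B genes were higher and 5 lower, with a median of −0.35 (−0.14 relative to all genes). Dnajb1 (Hsp40), the main heat-inducible partner of Hsp70, had 9.77, 9.99 and 10.12 in L-LY29 and 11.05 and 10.82 in H-LY29 on its brightest probe set (−0.98, SE 0.131, adjusted p = 0.0017). On its other probe set it had 10.27, 10.55 and 10.79 in L-LY29 and 9.33 and 9.02 in H-LY29 (1.36, adjusted p = 0.0017). Neither probe set overlapped between the doses, and without H-LY29 array 2 the other one was the brighter, so that the difference of Dnajb1 became 1.20 (adjusted p = 0.037).

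Dnajb6, which keeps polyglutamine proteins from aggregating, had 11.32, 11.38 and 11.44 in L-LY29 and 12.03 and 12.10 in H-LY29 (−0.69, SE 0.0528, adjusted p = 0.000254). It was lower on 3 of 4 probe sets, and the remaining one stood at 0.58. Dnajb5 had 7.13, 7.10 and 7.45 in L-LY29 and 9.07 and 9.20 in H-LY29 (−1.91, adjusted p = 0.000213), with −1.08 and 1.05 on the others. The heat-inducible Dnajb4 did not pass and had 9.95, 9.89 and 10.10 in L-LY29 and 10.16 and 9.86 in H-LY29, which overlap (−0.03, adjusted p = 0.831), though its second probe set was at 0.55. The testis-enriched Dnajb8 stood at 0.42 (adjusted p = 0.185), and at 0.83 without H-LY29 array 2, where it passed (adjusted p = 0.0028).

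Type C proteins, which share only the J domain, included the member with the highest difference. Of 25 tested, 7 were higher (28.0%), 13 lower (52.0%) and 5 did not pass, near the 27.1% higher and 46.6% lower of all genes. The median was −0.30 (−0.20 without H-LY29 array 1). That member, Dnajc17, a nuclear protein linked to splicing, had 10.93, 10.98 and 10.93 in L-LY29 and 6.38 and 6.98 in H-LY29 (4.27, SE 0.185, adjusted p = 6.47e-05, 19.3-fold). The same gene was lower on its other probe sets. One had 6.23, 5.96 and 6.45 in L-LY29 and 8.25 and 8.26 in H-LY29 (−2.04), and the other 3.94, 4.28 and 3.71 in L-LY29 and 6.76 and 7.04 in H-LY29 (−2.92), where the L-LY29 signals lay in the range of absent poly-A RNAs.

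Several other type C genes differed widely. Dnajc13 (RME-8), which acts on endosomes, had 8.12, 8.41 and 8.21 in L-LY29 and 10.66 and 10.56 in H-LY29 (−2.37, SE 0.105, adjusted p = 6.7e-05), and its second probe set stood at 2.05. Dnajc21, a factor in ribosome maturation, had 9.13, 9.14 and 9.22 in L-LY29 and 7.54 and 7.43 in H-LY29 (1.68, SE 0.0752, adjusted p = 6.81e-05, 3.20-fold), with 1.64 and −1.30 on the others. Dnajc18 had 8.03, 7.95 and 7.79 in L-LY29 and 10.12 and 9.93 in H-LY29 (−2.10, adjusted p = 8.89e-05), with 1.14 and 0.80 on the others. Its direction rests on both H-LY29 arrays, since without array 1 or array 2 another probe set was brightest and the difference was 1.19 or 1.09.

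Among the remaining type C genes, Dnajc24, needed to modify elongation factor 2, was higher by 0.65 (adjusted p = 0.00128), but its other probe set had 4.51, 4.86 and 4.83 in L-LY29 and 8.15 and 7.92 in H-LY29 (−3.30). Dnajc14 was lower (−0.62, adjusted p = 0.000367), with 1.46 and 1.26 elsewhere. Dnajc5 (cysteine string protein), a chaperone of synaptic vesicle exocytosis, stood at −0.54 (adjusted p = 0.00384). Its other probe sets differed by 0.40, −0.36, −0.04 and −0.60, of which the first and last passed. The ribosome-bound Dnajc2 stood at −0.49 (adjusted p = 0.00603), a call that depended on H-LY29 array 1. Its other probe sets differed by 1.04 and −0.64, and both passed. Dnajc12, a partner of aromatic amino acid hydroxylases, was higher by 1.83 (adjusted p = 0.000418). The spliceosome-associated Dnajc8 was higher on both of its probe sets (0.35 and 1.17). Dnajc12, Dnajc8, Hspa4, Hspa2 and Dnajc27 were named after their values were seen, as were the ER and mitochondrial members that follow below where the naming rule did not already give them.

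The ER-located members had a lower median than any chaperone class or the heat-inducible and mitochondrial lists, while the fibroblast and astrocyte markers lay lower still (medians −2.83 and −1.49). Of 11 tested, 9 were lower (81.8%), 0 higher and 2 did not pass, against 46.6% lower and 27.1% higher of all genes. The median was −1.43 (−1.17 relative to all genes). It was −1.18 after quantile normalization (−1.25 relative to all genes) and −1.22 with equal array medians (−1.17 relative to all genes). The result depends on both H-LY29 arrays and on the probe set. Without H-LY29 array 2, 2 were higher and 7 lower with a median of −0.97 (−0.76 relative to all genes), and without array 1, 1 was higher and 9 lower with a median of −1.02 (−0.85 relative). By the second brightest, 3 were higher and 7 lower with a median of −0.79. With a gene's probe sets averaged, 1 was higher and 8 lower, and over 27 probe sets 5 were higher, 18 lower and 4 did not pass. The list does not hold Dnajc14, which is also known as an ER membrane protein and was lower on its brightest probe set and higher on both others. The 48 tested members in neither the ER nor the mitochondrial list had 15 higher (31.25%), 19 lower (39.6%) and a median of −0.15. The ER and mitochondrial lists were written with earlier results of these arrays known, so the counts describe the lists only. The difference between these groups was not tested.

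Partners of the lumenal Hsp70 made up much of the ER group. Dnajb11 (ERdj3), which delivers unfolded protein to it, had 9.74, 9.70 and 9.82 in L-LY29 and 11.97 and 12.08 in H-LY29 (−2.27, SE 0.0619, adjusted p = 4.15e-05, a ratio of 0.207). Dnajc10 (ERdj5), a disulfide reductase, had 9.01, 8.95 and 9.12 in L-LY29 and 10.57 and 10.35 in H-LY29 (−1.43, adjusted p = 0.000167), and it was lower on 3 of 3 probe sets. Dnajb9 (ERdj4) was lower (−0.62, adjusted p = 0.024), but the call was lost on leaving out any 1 L-LY29 array (adjusted p from 0.0574 to 0.0749) or H-LY29 array 2 (0.0736). None of these 3 genes overlapped between the doses, which was also so for 83.1% of all genes tested.

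Dnajc3 (p58IPK), whose promoter held the ER stress element, differed between probe sets. The brightest had 10.21, 10.14 and 10.14 in L-LY29 and 9.98 and 10.33 in H-LY29, which overlap (0.01, adjusted p = 0.95). The other 4 were lower (−1.70, −1.66, −3.44 and −2.38). On the third of these 4, the signals were 6.78 to 7.05 in L-LY29 and 10.32 and 10.44 in H-LY29, and on the last the L-LY29 signals of 3.44 to 4.20 lay in the range of absent poly-A RNAs.

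The ER membrane proteins behaved alike in direction on their brightest probe sets. Dnajb12, which helps degrade misfolded membrane proteins, had 6.54, 6.65 and 6.81 in L-LY29 and 8.73 and 8.71 in H-LY29 (−2.05, SE 0.109, adjusted p = 9.73e-05), and its second probe set stood at −1.44. Its relative Dnajb14 had 8.95, 9.12 and 9.17 in L-LY29 and 9.61 and 9.88 in H-LY29 (−0.66, SE 0.116, adjusted p = 0.00456). Its other probe set read 9.74, 9.73 and 9.22 in L-LY29 and 6.53 and 6.42 in H-LY29 (3.09, adjusted p = 0.000121), the widest reversal among the ER members. Dnajc25 had 5.24, 5.58 and 5.44 in L-LY29 and 8.13 and 7.79 in H-LY29 (−2.54, adjusted p = 0.000153), and Dnajc16 was lower on both probe sets (−2.00 and −1.16). Hspa13, an Hsp70-like ATPase of microsomes, had 9.43, 9.49 and 9.57 in L-LY29 and 10.47 and 10.51 in H-LY29 (−0.99, SE 0.0636, adjusted p = 0.000154), with 0.99, −0.31 and 0.93 elsewhere. Dnajc18, described above, was the ninth lower gene. Dnajc1 stood at −0.10 (adjusted p = 0.34), with −0.20 and −1.40 on its other probe sets, of which the last passed. Fibroblast markers were also lower in L-LY29 on 6 of 6 genes, and their part in the ER group was not tested.

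**Figure D4:**
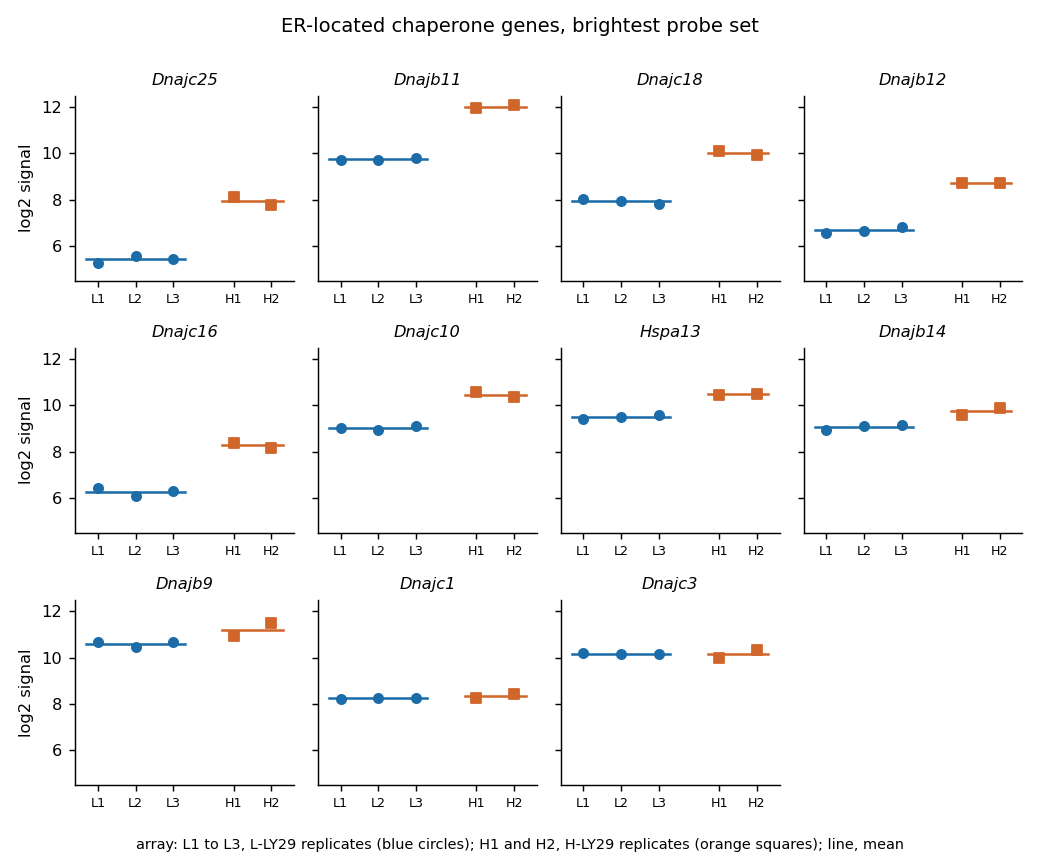
Log2 signal of the brightest probe set of the 11 tested ER-located members (vertical axis) on the 3 L-LY29 and 2 H-LY29 arrays. Only Dnajc3 and Dnajc1 did not pass the test, and Dnajc25 and Dnajb11 show the widest gaps, −2.54 and −2.27.

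Of 9 mitochondrial members tested, 2 were higher (22.2%), 6 lower (66.7%) and 1 did not pass, against 27.1% higher and 46.6% lower of all genes. The median was −0.81 (−0.54 relative to all genes). With a gene's probe sets averaged it was −0.08 and 0.16 relative to all genes, so the direction relative to all genes turned. Hspd1 and the type C protein Dnajc4 (0.40, adjusted p = 0.013) were the higher ones. Hspa9 (mortalin), the matrix Hsp70 that pulls proteins through the import channel, had 11.00, 10.99 and 10.95 in L-LY29 and 11.66 and 11.91 in H-LY29 (−0.81, SE 0.0816, adjusted p = 0.000619), with −0.99, 2.10 and 1.33 on its other probe sets. Dnajc15, of the import motor and complex I, was lower (−1.01, adjusted p = 0.000463), as were Dnajc28 (−2.23, adjusted p = 0.000155) and Dnajc11, of the cristae complex (−1.31, adjusted p = 0.000594). The other Dnajc11 probe sets differed by −2.38 and 0.89, and the last did not pass. Dnajc30 stood at −0.08 (adjusted p = 0.603).

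The BAG proteins had 2 genes higher, 2 lower (33.3% each) and 2 that did not pass, against 27.1% higher and 46.6% lower of all genes. Their median of −0.11 was 0.10 with equal array medians and 0.30 after quantile normalization. Bag6, which guides tail-anchored and misfolded membrane proteins, had 7.53, 7.45 and 7.67 in L-LY29 and 10.45 and 10.50 in H-LY29 (−2.93, SE 0.0896, adjusted p = 4.49e-05, a ratio of 0.132). Bag1, an exchange factor of Hsp70 that also binds BCL2, averaged 11.96 ± 0.0348 in L-LY29 (SD, n = 3) and 11.26 ± 0.117 in H-LY29 (SD, n = 2), without overlap (0.70, adjusted p = 0.0004). Bag5 was higher by 0.74 (adjusted p = 0.00203) and Bag2, an inhibitor of the ubiquitin ligase CHIP, lower (−0.63, adjusted p = 0.00429). The second Bag5 probe set stood at −0.06 and did not pass. Bag3, the heat-inducible partner of Hspb8, had 9.35, 9.04 and 9.35 in L-LY29 and 9.68 and 9.49 in H-LY29 without overlap, but did not pass (−0.34, adjusted p = 0.0674). Bag4 stood at 0.12 (adjusted p = 0.18), with 0.27 and −0.38 on its other probe sets, of which the first passed.

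Disagreement between probe sets of a gene ran through the family. At the level of probe sets 29.0% of the 23456 tested were higher and 43.7% lower, 72.8% in either direction, with no overlap on 82.0%. Among the 147 chaperone probe sets, 51 (34.7%) were higher, 67 (45.6%) lower and 29 did not pass, with no overlap on 129 (87.8%) and a median of −0.27, against −0.20 for all. Of the 33 members with at least 2 called probe sets, 21 (63.6%) had calls in both directions, against 43.3% of all genes. Members had 2.16 tested probe sets on average and all genes 1.81, so the shares are not set on equal terms. In 16 of the 21 the brightest called probe set was lower in L-LY29 (76.2%, against 60.2% of all such genes).

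Ordered by mean signal the 21 genes were Hspa8, Hspe1, Hsph1, Dnajb6, Dnaja2, Hspa9, Dnajb1, Dnajc14, Dnajc5, Hspa13, Dnajc2, Dnajb14, Dnaja4, Dnajc17, Dnajc13, Hspa4l, Dnajc18, Dnajc21, Dnajc24, Dnajb5 and Hspa12a. Of the 40 members with several tested probe sets, Dnaja1, Dnajc8 and Hspa1b were higher on all of them, and Dnajb12, Dnajc10, Dnajc16, Hspa4 and Hspb8 lower on all. The other 28 members rest on 1 tested probe set each. Which part of a transcript each probe set reads was not analysed here.

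**Figure D5:**
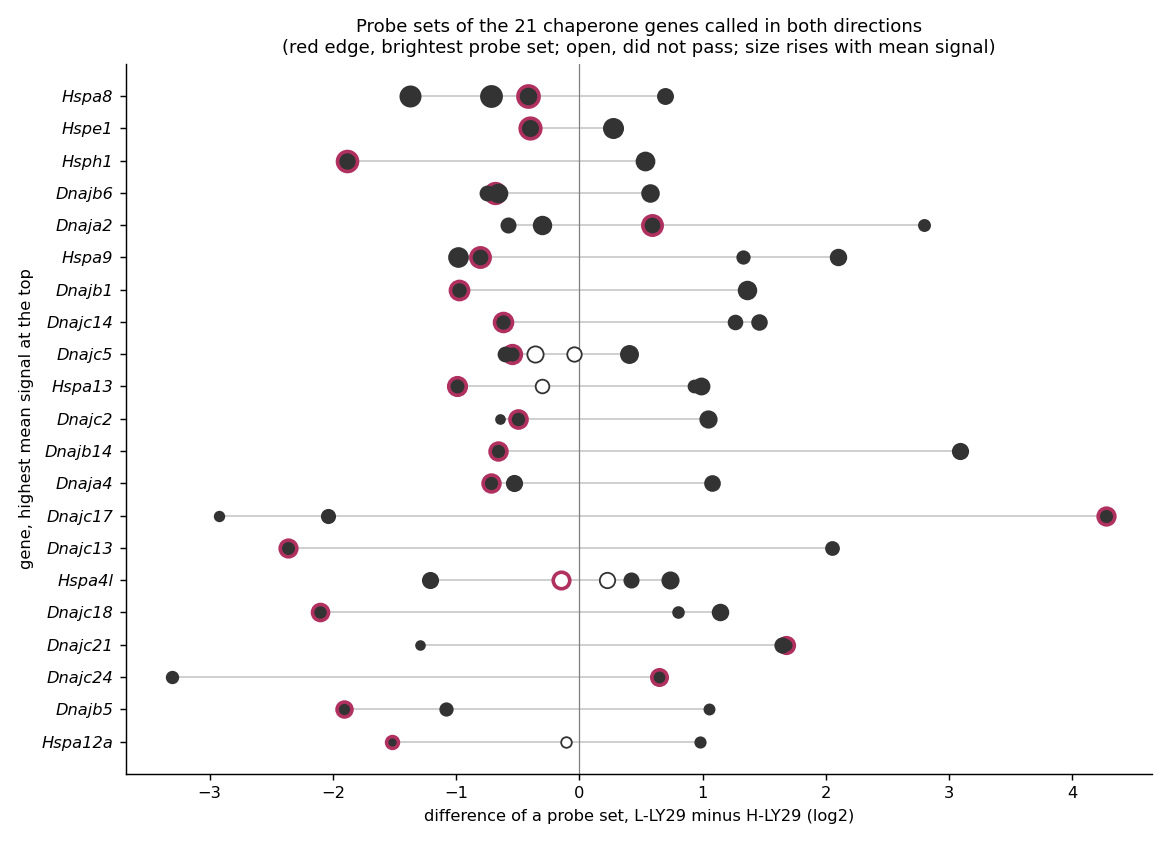
Difference in log2 signal (L-LY29 minus H-LY29) of every tested probe set of the 21 members with called probe sets in both directions, one row per gene, with point size by mean signal, a red edge on the brightest and open points where the test was not passed. Dnajc17 spans −2.92 to 4.27 and Dnaja2 −0.58 to 2.80.

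Co-chaperones and other partners outside the family were given as a list of 64 genes, of which 56 were tested. Of these 17 were higher (30.4%), 21 lower (37.5%) and 18 did not pass, against 27.1% higher and 46.6% lower of all genes. The median was −0.06. Among 20 tested co-chaperones of Hsp70 and Hsp90 (7 higher, 8 lower, median 0.02), Cdc37, which hands kinases to Hsp90, had 11.45, 11.52 and 11.57 in L-LY29 and 9.98 and 10.04 in H-LY29 (adjusted p = 5.12e-05). Pdcl3 was higher (2.16), and Tomm34, a cytosolic import factor, was lower (−1.94). Among 16 subunits of the TRiC chaperonin, prefoldin and relatives (5 higher, 6 lower, median −0.06), Pfdn2 had 11.96, 12.03 and 11.91 in L-LY29 and 9.58 and 9.59 in H-LY29 (2.38, SE 0.0525, adjusted p = 4.04e-05). Pfdn5, of the same complex, was higher by 0.60, and Pdrg1 was lower (−1.73). Over the 35 tested probe sets of this list, differences ran from −4.22 to 2.38.

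Of 10 mitochondrial partners 1 was higher and 4 lower, with a median of −0.23. Timm44, which tethers Hspa9 to the import channel, had 9.26, 9.26 and 9.36 in L-LY29 and 8.28 and 8.30 in H-LY29 (adjusted p = 0.000167). Pam16 of the same motor was lower (−0.95, adjusted p = 0.000349), as was Trap1, the mitochondrial Hsp90 (−1.04, adjusted p = 0.000676). By the second brightest probe set the direction of Trap1 turned. The last list of 10, crystallins and genes tied to heat shock factors or DnaJ function, had 4 higher and 3 lower with a median of −0.14. In it the ubiquitin shuttle Ubqln1 was higher by 1.21, while the segregase Vcp and the clathrin-uncoating kinase Gak were lower (−0.49 and −0.69).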

How the data were processed

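Each of the 5 arrays was assigned to L-LY29 or H-LY29 by its label. According to the methods, the authors normalised the scanned arrays by MAS-5 in GeneSpring, to a target that no source used here gives. The deposited log2 signals were used here unaltered. Of 23456 probe sets tested, 7882 had equal values on at least 2 L-LY29 arrays. Whether MAS-5 alone gave these signals was not checked. Probe sets that name 1 gene (34958, with 932 naming several and 9211 none) and whose mean reached the 40th percentile, 4.77, were tested by limma 3.58.1 in R 4.3.3 (lmFit, eBayes with an intensity trend, two-sided), with the brightest probe set standing for its gene. Precision is limited by how few arrays there are.

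The members and all lists, namely heat-inducible, ER-located, mitochondrial, partner and cell type marker genes, were chosen with earlier results of these data known and were written from general knowledge. Named were the heat-inducible genes, up to 4 members of each class with the lowest adjusted p, up to 2 that did not pass with the highest signal, all genes with probe sets called in both directions, and up to 3 of each partner list. This gave 45 members and 12 partners, and 14 further members were named after their values were seen. Alternatives were other filters, a floor, quantile normalization, equal array medians, the mean or second brightest probe set of a gene, no trend, a replicate block, each array left out and, chosen after seeing the data, the family without probe sets marked _s_at or _x_at, which can bind transcripts of several genes.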

Additional observations from a re-analysis of the deposited data

How the results depend on the processing

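Over 1059 comparisons of named genes and partners with an alternative, 950 kept direction and side of the threshold, 33 lost a call, 18 gained one and 58 turned, 13 of the last with an array left out. The cause was not tested. The second brightest probe set gave 27 chaperone genes higher in L-LY29, in place of 17. The family median of −0.41 became −0.27 with no filter, −0.19 after quantile normalization, −0.20 with equal array medians, −0.15 with probe sets averaged and −0.12 by the second brightest. Partners were higher in 27, in place of 17, with equal array medians and lower in 13, in place of 21, after quantile normalization.

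With the replicate number as a block, 14 chaperone genes were higher and 32 lower, 43 probe sets were higher and 61 lower, the median was −0.44, and 15 partners were higher and 18 lower. Dnaja1 (adjusted p = 0.0649), Dnajb9 and Hspa2 lost their call and Bag3 gained one (adjusted p = 0.0394). Whether the numbers pair the arrays is not known. Deviations of arrays of 1 number correlated at 0.0185 and 0.0464. With 2 H-LY29 arrays, whose deviations are exact opposites, these values cannot decide it. With each array left out, 16 to 22 genes were higher and 31 to 33 lower, 47 to 51 probe sets were higher and 58 to 66 lower, the median was −0.44 to −0.26, and 16 to 20 partners were higher and 19 to 22 lower. Hspe1 lost its call without H-LY29 array 1 (adjusted p = 0.0834), and Hspa2 without any L-LY29 array.

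Turned by equal array medians were Dnajb4 (0.18), Dnajc1 (0.11), Dnajc30 (0.13), Hspa14 (0.15), Hspa4l (0.062) and Hspb1 (0.15), and by quantile normalization Dnajb4 (0.20), Dnajc1 (0.37), Dnajc30 (0.29), Hspa14 (0.26) and Hspa4l (0.23). With probe sets averaged, Dnajb1 (0.19), Dnajb14 (1.21), Dnajb4 (0.26), Dnajc14 (0.70), Dnajc17 (−0.23), Dnajc24 (−1.33), Dnajc3 (−1.83), Hspa13 (0.16), Hspa4l (0.0028), Hspa9 (0.41) and Hspb1 (0.21) turned. By the second brightest these were Bag5 (−0.063), Cdc37 (−0.33), Dnaja2 (−0.31), Dnajb1 (1.36), Dnajb14 (3.09), Dnajb4 (0.55), Dnajc13 (2.05), Dnajc14 (1.46), Dnajc17 (−2.04), Dnajc18 (1.14), Dnajc2 (1.04), Dnajc24 (−3.30), Dnajc3 (−1.70), Dnajc5 (0.40), Hspa13 (0.99), Hspa4l (0.74), Hspb1 (0.48), Hspe1 (0.27), Hsph1 (0.53) and Trap1 (0.13). Without probe sets marked _s_at or _x_at, Dnaja2 (−0.31), Dnajc24 (−3.30) and Hspe1 (0.27) turned. With an array left out, which can change the brightest probe set, Dnajb1 ranged from −1.06 to 1.20, Dnajb4 from −0.18 to 0.12, Dnajc18 from −2.16 to 1.19, Dnajc3 from −0.16 to 0.18, Dnajc30 from −0.27 to 0.11, Hspa14 from −0.19 to 0.061, Hspa4l from −0.16 to 0.82 and Hspb1 from −0.24 to 0.19.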
